A study of Mus musculus with 9 samples.

Results

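The TGF-beta genes described here are 9 genes of the RNA-seq table, chosen by name: the ligands Tgfb1, Tgfb2, Tgfb3 and Inhba, the receptors Tgfbr1 and Tgfbr2, the intracellular inhibitor Smad7 and the target genes Ccn1 and Ccn2. All 9 were found among the 19769 genes of the table, and all 9 were among the 11870 genes high enough to be tested. The RNA came from mouse embryonic fibroblasts (MEFs), primary cells of Myc-Egfp+/+ embryos in which both copies of Myc encode a MYC-GFP fusion. All cells received 20 µM MG-132, a proteasome inhibitor that raises the MYC-GFP signal, for 6 h, were sorted into low-GFP (low-MYC) and high-GFP (high-MYC) cells and were seeded overnight before RNA extraction. There were 4 libraries, 2 technical replicates per group, so a p-value here measures the spread between these libraries and not between animals or cultures, and no group without MG-132 was compared.

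TGF-beta ligands are secreted in a latent form, held by their own propeptide and by matrix proteins, and act once released. The active ligand joins a pair of type II receptors (Tgfbr2) and type I receptors (Tgfbr1), which phosphorylate SMAD2 and SMAD3. These bind SMAD4, enter the nucleus and switch on genes that include the feedback inhibitor Smad7 and, in fibroblasts, matrix and cytoskeletal genes. Inhba encodes the subunit of activin A, which signals through its own receptors to the same SMADs. Ccn1 (older name Cyr61) and Ccn2 (older name Ctgf) encode secreted matrix-associated proteins that respond to TGF-beta and also to serum and to the YAP/TAZ-TEAD factors.

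ERCC spike-in RNA was added in proportion to cell number, and the authors divided the reads per kilobase of each transcript (FPK) by a spike-in score. A normalized FPK therefore compares amounts per cell, and, being per length, may be compared between genes. Over all genes, the sum was 46321 and 48291 for low-MYC and 102853 and 109090 for high-MYC cells. Each gene was also expressed as its share of that sum, in ppm (1 part in 1000000), which sets it against the other mRNAs of the same library and no longer depends on the spike-in score. Fibroblast markers (10 of 10 measured, Col1a1 and Vim among them) summed to a normalized FPK of 296 and 299 in the low-MYC libraries and of 709 and 721 in the high-MYC libraries. Macrophage markers (15 of 15 measured, all over 2-fold higher by the ratio of means; C1qa, Adgre1 and Tyrobp, 3 of the 15, listed at 0 in low-MYC replicate 1 and 0 of the 15 in the other libraries) summed to 0.949 and 1.30 against 30.2 and 31.5, a share of 20.5 and 27.0 ppm against 293 and 289 ppm. Whether macrophage RNA had a part in the values of the TGF-beta genes was not tested. In RNA of whole cell populations, fewer cells that express a gene and less RNA per cell cannot be told apart.

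Promoter sequences are shown for the ligand isoforms Tgfb1 and Tgfb2, to set their motifs side by side, and for Tgfbr2 and Ccn1, the members with the highest and lowest log2 fold change in share that had an entry in the RefSeq promoter table (build GRCm38.p6, the coordinates of mm10). The table held 6 of the 9 members and none for Tgfb3, Smad7 and Ccn2. The 250 bases before the RefSeq transcription start are given 5′ to 3′ on the strand of the gene, and that start lies within 4 bases of the start in the RNA-seq table. Capitals mark CAGAC (a short SMAD-binding motif), CATTCC (the TEAD element), CACGTG (the E-box bound by MYC and MAX) and TGANTCA (the AP-1 element). These were searched on both strands. TATAAA (the TATA box) is also in capitals and was searched on the given strand.
Tgfb1, chr7:25686752-25687001 (plus strand): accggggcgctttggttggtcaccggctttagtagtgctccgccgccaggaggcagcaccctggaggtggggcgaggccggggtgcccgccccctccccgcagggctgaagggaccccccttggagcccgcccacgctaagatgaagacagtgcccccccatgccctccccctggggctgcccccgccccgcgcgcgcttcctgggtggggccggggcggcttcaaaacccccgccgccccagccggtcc
Tgfb2, chr1:186705990-186706239 (minus strand): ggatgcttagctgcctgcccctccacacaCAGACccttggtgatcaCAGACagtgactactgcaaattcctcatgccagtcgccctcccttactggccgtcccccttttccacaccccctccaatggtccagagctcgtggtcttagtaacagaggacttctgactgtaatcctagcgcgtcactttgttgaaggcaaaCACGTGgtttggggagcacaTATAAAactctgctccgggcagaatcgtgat
Tgfbr2, chr9:116175364-116175613 (minus strand): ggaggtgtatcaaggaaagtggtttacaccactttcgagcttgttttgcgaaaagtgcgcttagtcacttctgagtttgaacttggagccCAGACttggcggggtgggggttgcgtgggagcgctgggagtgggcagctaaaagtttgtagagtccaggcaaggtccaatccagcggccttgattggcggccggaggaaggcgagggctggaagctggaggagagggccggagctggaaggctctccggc
Ccn1, chr3:145649986-145650235 (minus strand): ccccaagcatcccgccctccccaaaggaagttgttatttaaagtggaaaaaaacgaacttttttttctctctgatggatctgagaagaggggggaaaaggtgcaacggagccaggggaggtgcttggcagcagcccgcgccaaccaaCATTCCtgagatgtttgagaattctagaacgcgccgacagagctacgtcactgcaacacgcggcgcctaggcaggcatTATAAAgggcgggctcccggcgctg

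The Tgfb2 window held CAGAC at -221 to -217 and at -204 to -200, CACGTG at -51 to -46 and TATAAA at -31 to -26, counting -1 as the base just before the start. The Ccn1 window held CATTCC at -103 to -98 and TATAAA at -25 to -20. The Tgfbr2 window held CAGAC at -160 to -156, and the Tgfb1 window, with a GC content of 75.2% against 54.8% for Ccn1, held none of the 5 motifs. No matches overlapped each other in these windows. Among all 32851 windows of the table, CAGAC was found in 42.2%, CATTCC in 12.6%, TATAAA in 7.59%, TGANTCA in 6.75% and CACGTG in 6.02%. A match describes the letters and shows no binding.

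The levels of the 9 genes spanned more than 3 orders of magnitude on the normalized FPK scale, and each gene kept nearly the same place in the order in both groups (plot of levels by library). Ccn2 and Ccn1 ranked 14 and 28 of all 19769 genes in low-MYC cells and 16 and 31 in high-MYC cells. Inhba ranked 205 and 203, and Tgfb3 ranked 1038 and 1171. Smad7, Tgfb1, Tgfbr2, Tgfbr1 and Tgfb2 followed in that order in both groups, down to ranks of 9762 and 10152 for Tgfb2. In low-MYC cells every neighbour in this order was separated by more than the spread of the replicates. In high-MYC cells Tgfb1 (1.63 and 1.61) and Tgfbr2 (1.504 and 1.59) lay close together, with group means of 1.62 and 1.55 beside an SD of 0.0598 for Tgfbr2.

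**Figure D1:**
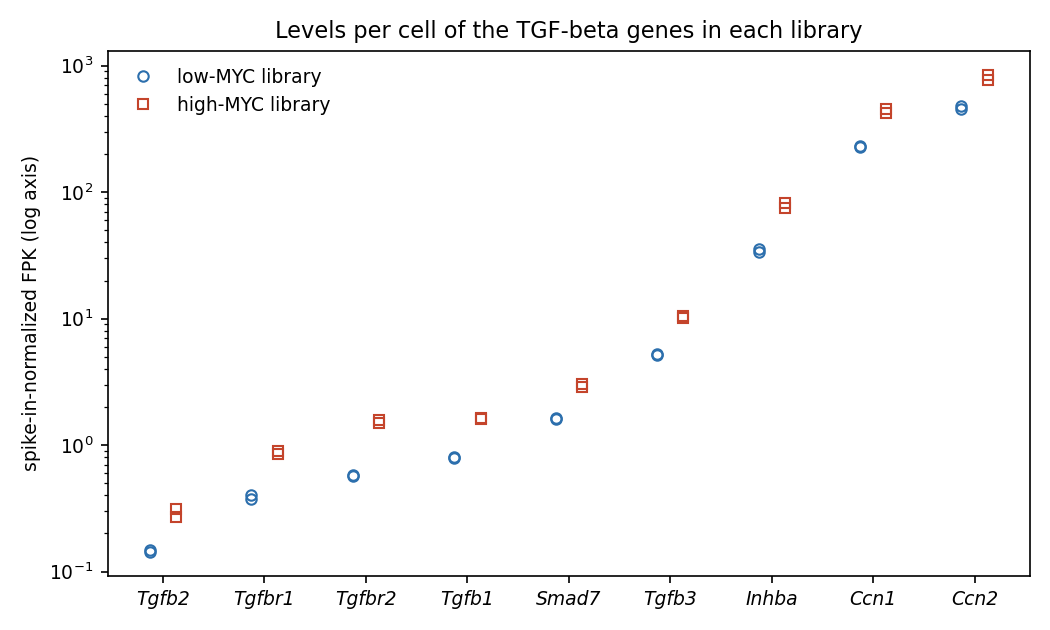
Spike-in-normalized FPK (log axis) of the 9 TGF-beta genes, ordered by mean level, with 1 circle for each of the 2 low-MYC libraries and 1 square for each of the 2 high-MYC libraries. For every gene both high-MYC libraries lie above both low-MYC libraries, from 0.143 for Tgfb2 to 850 for Ccn2.

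Per cell, all 9 genes were higher in high-MYC MEFs at an adjusted p under 0.01 (limma on log2(normalized FPK + 0.1), adjusted over all genes tested by the Benjamini-Hochberg method). So were 97.1% of all genes tested, while 0 of the 9 and 0.0253% of all genes tested were lower. For 9 of 9 both high-MYC libraries lay above both low-MYC libraries, which held for 99% of all genes tested. Tgfbr2, Inhba and Tgfbr1 also passed the minimum of 2-fold, 3 of the 9 genes, whereas 55.1% of all genes tested did. The median log2 fold change was 0.94 over the members and 1.03 over all genes tested. With a pseudocount 10 times smaller, 4 of the 9 and 10076 of the 11870 genes tested passed the minimum of 2-fold. With the libraries rescaled to the same median, which takes out the shift shared by all genes, the log2 fold changes of Tgfb1, Tgfb2, Tgfb3, Smad7, Ccn1 and Ccn2 turned below 0, between -0.39 and -0.13. The adjusted p-values of the members on the spike-in scale lay between 1.04e-05 (Tgfbr2) and 0.00021 (Tgfb2). Several members sat near 2-fold: the count was 2 without low-MYC replicate 1, 3 without low-MYC replicate 2, 4 without high-MYC replicate 1 and 2 without high-MYC replicate 2.

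In share of the library, limma with the same adjustment called 0 of the 9 genes at an adjusted p under 0.01, against 2.31% of all genes tested, and 6 of the 9 had an unadjusted p under 0.05, against 31.6%. At an adjusted p under 0.05, Ccn2, Smad7, Ccn1 and Tgfb3 were lower, 4 of 9 genes against 3.89% of all genes tested, and Tgfbr2 was higher, 1 of 9 against 7.77%. The median log2 fold change in share was -0.13 over the members, between -0.37 and 0.24, and 0.01 over all genes tested. For 6 members (the 4 named and Tgfb1 and Tgfb2) both high-MYC libraries had a lower share than both low-MYC libraries, which held for 28.4% of all genes tested. For Tgfbr1 and Tgfbr2 both were higher, 2 of 9 against 33.9%. With any 1 of the 4 libraries left out, 0 of the 5 genes had an adjusted p under 0.05 in limma (0.0581 to 0.208), and 5 or 6 of the 9 had an unadjusted p under 0.05, against 20.2% to 27.2% of all genes tested. With no filter on low values, 2 of the 5 (Smad7 and Tgfbr2) had an adjusted p under 0.05 in limma, beside 1086 of all 19769 genes.

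**Figure D2:**
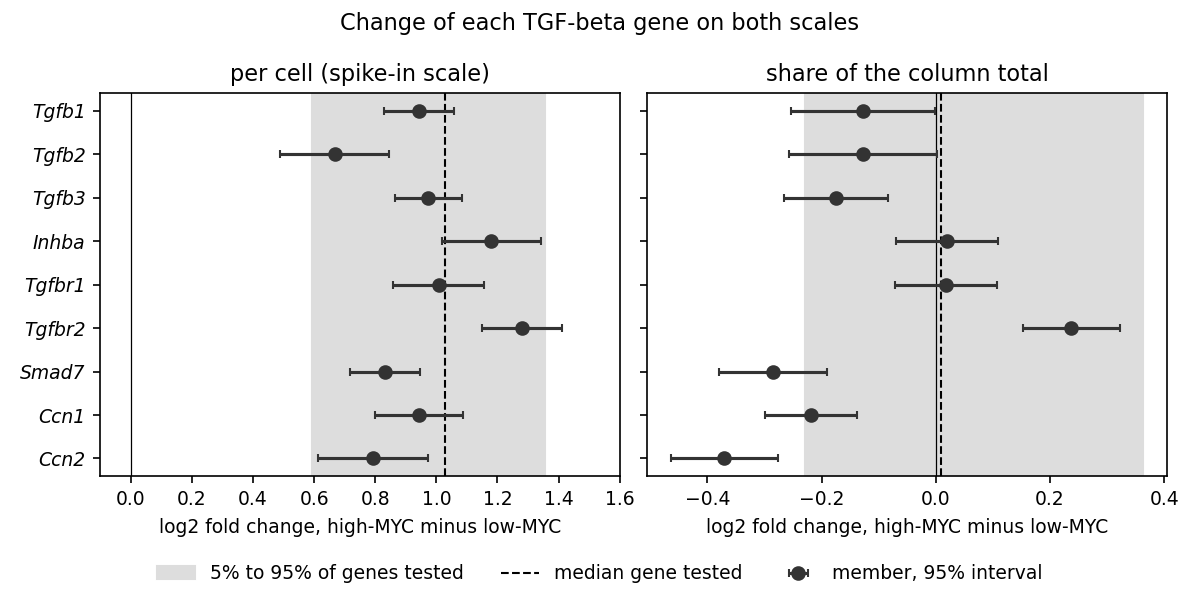
Log2 fold change of each of the 9 genes between high-MYC and low-MYC cells with its 95% interval from limma, per cell on the left and in share of the column total on the right. The grey band holds 5% to 95% of the genes tested and the dashed line is their median, 1.03 per cell and 0.01 in share; Ccn2 and Smad7 lie below the band in share, at -0.37 and -0.28.

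Among the ligands, Tgfb3 was the main TGF-beta transcript of these cells. Tgfb3 (mm10 chr12:86056745-86079041, minus strand) had a normalized FPK of 5.20 and 5.23 in the low-MYC libraries and of 10.1 and 10.6 in the high-MYC libraries. The ratio of means was 1.98 and the log2 fold change per cell 0.97 (standard error, SE, 0.0429, limma adjusted p = 1.11e-05). Its share was 112 and 108 ppm in low-MYC and 98.5 and 96.8 ppm in high-MYC cells, a difference of -11.5%, without overlap between the groups (log2 fold change in share -0.17, SE 0.0332, limma adjusted p = 0.0493).

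Tgfb1, the isoform best known from immune cells and platelets, was annotated at chr7:25687002-25705077 (plus strand). Its normalized FPK was 0.789 and 0.798 in low-MYC and 1.63 and 1.61 in high-MYC libraries, a ratio of means of 2.04, with a log2 fold change of 0.94 (SE 0.0450, limma adjusted p = 1.26e-05). Its shares, 17.0 and 16.5 ppm against 15.8 and 14.7 ppm, gave a log2 fold change of -0.13 (95% interval -0.25 to -0.0016, limma adjusted p = 0.155). The share of this ligand differed by -8.95% between the means, and whether macrophage RNA had a part in its values was not tested.

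Tgfb2, the lowest of the 9 genes, was annotated at chr1:186622792-186705989 (minus strand). Its normalized FPK was 0.143 and 0.149 in the low-MYC libraries and 0.272 and 0.311 in the high-MYC libraries, so the high-MYC replicates differed from each other more than the low-MYC replicates. The ratio of means was 1.99, but the log2 fold change with the pseudocount was 0.67 (SE 0.0702, limma adjusted p = 0.00021), since 0.1 is not small beside these values. In share, 3.09 and 3.09 ppm stood against 2.65 and 2.85 ppm (log2 fold change -0.13, 95% interval -0.26 to 0.0025, limma adjusted p = 0.164).

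The makeup of the ligand mRNAs was nearly the same in both groups. Tgfb3 made up 84.8% and 84.7% of the summed normalized FPK of Tgfb1, Tgfb2 and Tgfb3 in the low-MYC libraries and 84.2% and 84.6% in the high-MYC libraries. Tgfb1 made up 12.9% and 12.9% against 13.5% and 12.9%, and Tgfb2 2.34% and 2.42% against 2.26% and 2.49%. For Tgfb1 and Tgfb2 the groups overlapped. For Tgfb3 they did not, although the nearest libraries of the groups stood at 84.7% and 84.6%. With 2 libraries per group an exact two-sided permutation test cannot go below p = 0.3333, so such ratios within a library were not tested.

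Inhba (mm10 chr13:16011851-16031621, plus strand) was more abundant than the 3 TGF-beta ligands together. Its normalized FPK was 33.7 and 35.7 in low-MYC and 75.1 and 82.5 in high-MYC libraries, which is 5.48 and 5.78 times the summed ligands in low-MYC and 6.24 and 6.61 times in high-MYC cells. The ratio of means was 2.27 and the log2 fold change per cell 1.18 (SE 0.0639, limma adjusted p = 1.67e-05). Its share was 727 and 739 ppm against 730 and 756 ppm, and the groups overlapped. The log2 fold change in share was 0.02 with a 95% interval of -0.07 to 0.11 (limma adjusted p = 0.731), which does not show that the shares were equal. Of the 9 genes, Inhba alone had overlapping groups on this scale. Of all genes tested, 28.4% were lower and 33.9% higher in high-MYC cells without overlap.

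Of the receptors, Tgfbr2 had the higher log2 fold change on both scales, a difference that was not tested. Tgfbr2 (mm10 chr9:116084293-116175360, minus strand) had a normalized FPK of 0.573 and 0.584 in low-MYC and of 1.504 and 1.59 in high-MYC libraries, a ratio of 2.67. Its log2 fold change per cell, 1.28 (SE 0.0514, limma adjusted p = 1.04e-05), was the largest of the 9 and above that of 91.6% of all genes tested. Its share was 12.4 and 12.1 ppm against 14.6 and 14.6 ppm, 19.3% higher (log2 fold change 0.24, SE 0.0311, limma adjusted p = 0.0237).

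Tgfbr1 (mm10 chr4:47353222-47414931, plus strand) had a normalized FPK of 0.375 and 0.400 against 0.854 and 0.906, a ratio of means of 2.27, with a log2 fold change of 1.01 (SE 0.0586, limma adjusted p = 1.99e-05). Its share was 8.09 and 8.28 ppm in low-MYC and 8.30 and 8.30 ppm in high-MYC libraries, a log2 fold change of 0.02 with a 95% interval of -0.07 to 0.11 (limma adjusted p = 0.745). The ratio of Tgfbr2 to Tgfbr1 within a library, which depends on neither the spike-in score nor the column total, was 1.53 and 1.46 in low-MYC and 1.76 and 1.75 in high-MYC cells. The groups did not overlap for this ratio.

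Smad7, which blocks the activated type I receptor and recruits ubiquitin ligases to it, was annotated at chr18:75367529-75395935 (plus strand). Its normalized FPK was 1.62 and 1.62 in low-MYC and 2.90 and 3.02 in high-MYC libraries, a ratio of means of 1.83, with a log2 fold change per cell of 0.83 (SE 0.0449, limma adjusted p = 1.65e-05). Its share was 34.9 and 33.6 ppm against 28.2 and 27.7 ppm, a difference of -18.4% (log2 fold change -0.28, SE 0.0346, limma adjusted p = 0.0202), and only 3.42% of all genes tested had a lower value.

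**Figure D3:**
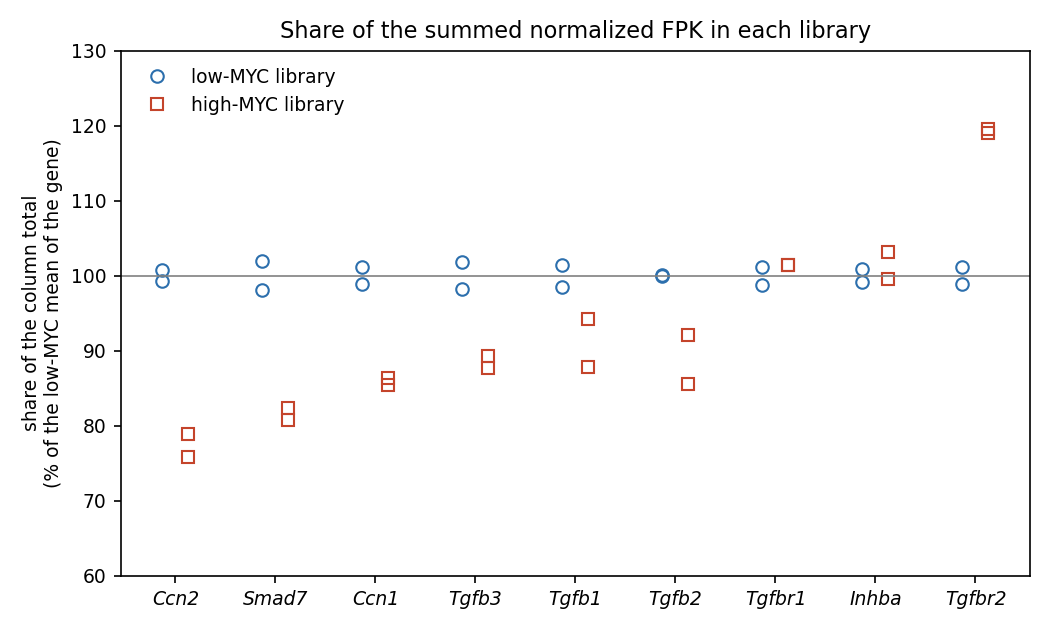
Share of the summed normalized FPK of each gene in each library, as a percentage of the mean of its 2 low-MYC libraries, ordered by the log2 fold change in share (circles, low-MYC; squares, high-MYC; the axis starts at 60%). Ccn2 and Smad7 stand lowest in the high-MYC libraries, Inhba overlaps with the low-MYC libraries, and Tgfbr2 stands highest.

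The target genes Ccn2 and Ccn1 carried most of the mRNA of the set, 94.1% of its summed normalized FPK in both low-MYC libraries and 92.8% in both high-MYC libraries. Ccn2 (mm10 chr10:24595442-24598683, plus strand) had a normalized FPK of 454 and 480 in low-MYC and of 771 and 850 in high-MYC libraries, a ratio of means of 1.73, with a log2 fold change per cell of 0.79 (SE 0.0708, limma adjusted p = 9.95e-05). Its share was 9808 and 9950 ppm against 7492 and 7793 ppm, a difference of -22.6% (log2 fold change -0.37, SE 0.0342, limma adjusted p = 0.0118). This was the lowest value of the 9 genes in share, and 1.90% of all genes tested lay below it.

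Ccn1, whose promoter window holds the TEAD element and the TATA box shown above, was annotated at chr3:145646976-145649981 (minus strand). Its normalized FPK was 226 and 230 in low-MYC and 423 and 454 in high-MYC libraries, a ratio of means of 1.93, with a log2 fold change per cell of 0.94 (SE 0.0565, limma adjusted p = 2.16e-05). Its share was 4873 and 4762 ppm against 4115 and 4163 ppm, a difference of -14.1% (log2 fold change -0.22, SE 0.0296, limma adjusted p = 0.0254). The ratio of Ccn2 to Ccn1 was 2.01 and 2.09 in low-MYC and 1.82 and 1.87 in high-MYC libraries, without overlap. Together they made up 1.47% of all normalized FPK in each low-MYC library and 1.16% and 1.20% in the high-MYC libraries.

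For each member, the gene with the closest centred log2(share in ppm + 1) values over the 4 libraries was found. It was sought among 5607 or 5608 genes averaging 1 or more in normalized FPK. The added 1 ppm understates the change of low genes such as Tgfb2. The closest were Dctpp1 for Tgfb1, Gnl3 for Tgfb2, Sh2b3 for Tgfb3, Wnt5a for Inhba and Wdr82 for Tgfbr1. For the other members they were Vwa5a for Tgfbr2, Hes1 for Smad7, Tceal9 for Ccn1 and Esd for Ccn2. The Euclidean distances ran from 0.00315 (Wnt5a) to 0.0165 (Esd) on the log2 scale. With 2 groups of 2 libraries, this likeness is a description and has no test.

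The other genes of the pathway came from 7 lists with 101 genes, of which 86 could be tested. Per cell, 56 of the 86 were higher by at least 2-fold with an adjusted p under 0.01 (limma), 65.1% against 55.1% of all genes tested, and their median log2 fold change was 1.10 against 1.03. The direction of the difference in percentages depended on the settings. With a pseudocount 10 times smaller, 69 of the 86 passed, beside 10076 of the 11870 genes tested. With a minimum mean of 1, 49 of 64 passed, beside 4779 of 5608 genes. In share, limma called 9 higher and 2 lower at the same threshold, beside 1.78% and 0.531% of all genes tested, and their median log2 fold change was 0.02 against 0.01. These 11 calls rested on all 4 libraries: without low-MYC replicate 1, low-MYC replicate 2, high-MYC replicate 1 or high-MYC replicate 2, 0 of the 86 passed in limma, and 42, 39, 45 and 44 had an unadjusted p under 0.05, beside 22.8%, 20.2%, 22.6% and 27.2% of all genes tested. The lists and their members were chosen with earlier results of these data known.

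Of the other ligands, 7 of 14 could be tested. At least 2-fold higher per cell were 6, 85.7% against 55.1% of all genes tested, and 2 were higher in share, against 1.78%. The median log2 fold change in share was 0.39. Bmp4, a ligand of the BMP receptors, had a normalized FPK of 0.585 and 0.542 in low-MYC and of 2.70 and 2.55 in high-MYC libraries, and rose in share by 1.00 on the log2 scale (limma adjusted p = 0.0096). Inhbb, the subunit of activin B, had 3.50 and 3.60 against 11.4 and 11.5 (log2 fold change in share 0.52, limma adjusted p = 0.0069). Gdf11, an activin-like ligand, had 1.30 and 1.37 against 3.58 and 3.81 and a log2 fold change in share of 0.29 (limma adjusted p = 0.0123).

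Of the genes of ligand latency and activation, 14 of 17 could be tested. At least 2-fold higher per cell were 12, 85.7% against 55.1% of all genes tested, and 1 was higher in share, against 1.78%. That gene was Fbn1, which encodes the microfibril protein that anchors latent complexes, with 1.06 and 1.14 against 3.52 and 3.80 (log2 fold change in share 0.55, limma adjusted p = 0.0053). Thbs1, an activator of latent TGF-beta, was the most abundant gene of the lists at 538 and 533 against 1192 and 1244, and its log2 fold change in share was 0.02 (limma adjusted p = 0.729). Itgb1, an integrin subunit, had 31.6 and 33.4 against 65.1 and 72.4, with a log2 fold change in share of -0.08 (limma adjusted p = 0.200).

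Of the other receptors, 8 of 12 could be tested. At least 2-fold higher per cell were 3, 37.5% against 55.1% of all genes tested, and 1 was higher in share, against 1.78%. It was Tgfbr3 (betaglycan), a co-receptor that presents ligand to Tgfbr2, at 0.0606 and 0.0595 against 0.263 and 0.274 (log2 fold change in share 0.64, limma adjusted p = 0.0082). The BMP receptors Bmpr2 and Bmpr1a, the highest of this list, had log2 fold changes in share of -0.09 and 0.05. All 8 genes of the SMAD list were tested, and 3 were at least 2-fold higher per cell, 37.5% against 55.1% of all genes tested. At an adjusted p under 0.01 in limma, 0 passed in share. Smad3 and Smad6 (limma adjusted p = 0.0320 and 0.0973) had an unadjusted p under 0.05, 2 of 8 against 31.6% of all genes tested. In share, the log2 fold changes of the list lay between -0.07 and 0.24, with 0.01 for Smad5 and -0.06 for Smad4, the highest of the list.

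Of the 15 inhibitors, 9 were at least 2-fold higher per cell, 60% against 55.1% of all genes tested. In share 2 were higher and 1 was lower, against 1.78% and 0.531%. Fst (follistatin, which binds and neutralizes activin) had a normalized FPK of 15.6 and 15.6 in low-MYC and of 46.9 and 51.4 in high-MYC libraries, and its share rose by 0.49 on the log2 scale (limma adjusted p = 0.0088), beside 0.02 for Inhba. Grem1, a secreted BMP antagonist, had 6.74 and 6.98 against 21.01 and 21.8 (log2 fold change in share 0.48, limma adjusted p = 0.0053). Tgif1, a nuclear co-repressor of SMADs, had 4.67 and 4.88 against 8.11 and 8.72, so that it rose per cell (log2 fold change 0.80) and fell in share by 0.34 on the log2 scale (limma adjusted p = 0.0093).

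Of the 19 other target genes, 13 were at least 2-fold higher per cell, 68.4% against 55.1% of all genes tested. In share 2 were higher and 0 were lower at an adjusted p under 0.01 in limma, against 1.78% and 0.531%. Tgfbi, a secreted adhesion protein, had 0.312 and 0.303 against 1.33 and 1.30 (log2 fold change in share 0.84, limma adjusted p = 0.0067), and Cdkn2b, the cell cycle inhibitor p15, had 1.00 and 1.07 against 3.06 and 3.19 (0.41, limma adjusted p = 0.0084). Tagln, an actin-binding protein and among the most abundant of the list, had 223 and 224 against 434 and 438, and a log2 fold change in share of -0.20 (limma adjusted p = 0.0563). At an adjusted p under 0.05 in limma, 5 of the 19 were higher in share and 4 were lower, against 7.77% and 3.89% of all genes tested.

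Of the CCN and Hippo pathway genes, 15 of 16 could be tested. At least 2-fold higher per cell were 10, 66.7% against 55.1% of all genes tested. In share 1 was higher and 1 was lower, against 1.78% and 0.531%. Ccn5, a relative of Ccn1 and Ccn2 that lacks their C-terminal domain, had 0.571 and 0.505 against 3.73 and 3.28 and a log2 fold change in share of 1.46 (limma adjusted p = 0.0095), the highest of the 86 genes. Ankrd1, a well-known YAP/TAZ target, had 19.1 and 19.2 against 27.9 and 30.0 and fell in share by 0.57 on the log2 scale (limma adjusted p = 0.0049), the lowest of the 86 genes, while its log2 fold change per cell was 0.59. Axl and Amotl2, the most abundant genes of the list, had log2 fold changes in share of -0.11 and -0.05, and Yap1 and Wwtr1 (TAZ) themselves 0.04 and 0.13.

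**Figure D4:**
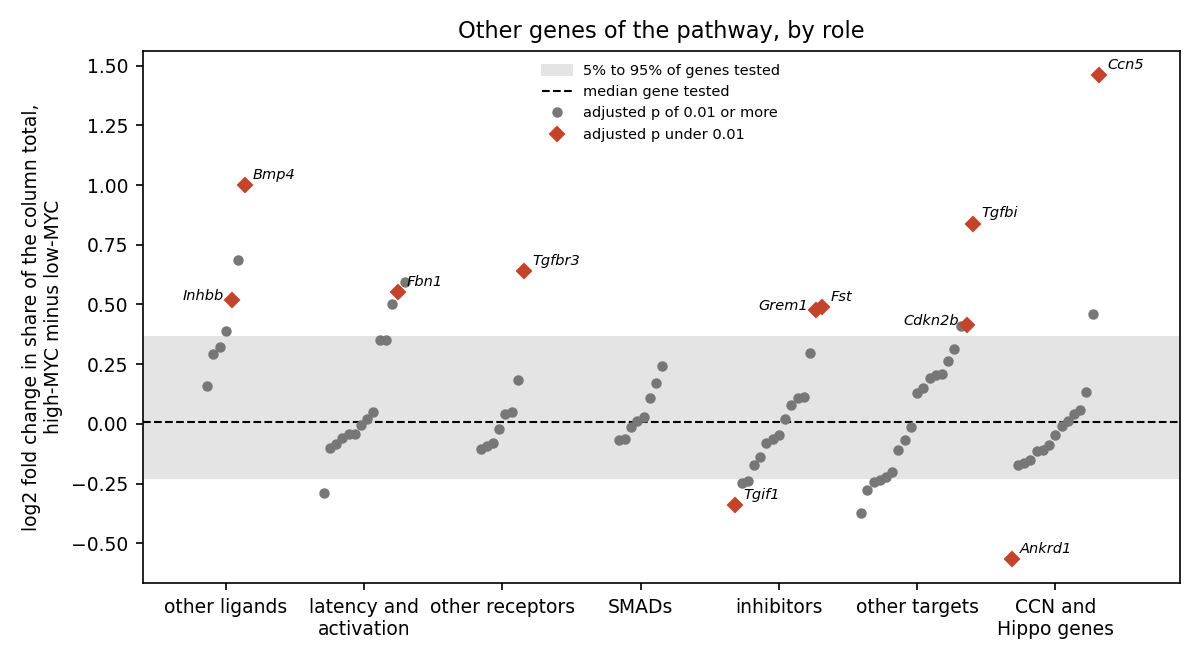
Log2 fold change in share of the column total for the 86 tested genes of the 7 pathway lists, 1 point per gene, by role; red diamonds have an adjusted p under 0.01 (limma), the grey band holds 5% to 95% of the genes tested and the dashed line is their median, 0.01. Ccn5 (1.46), Bmp4 (1.00) and Tgfbi (0.84) stand highest and Ankrd1 (-0.57) lowest.

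Chromatin accessibility at the 9 genes was read from the TACh-seq table, which lists nuclease-accessible DNA fragments sequenced from MEFs. The labels of 4 samples, WT MEFs and MEFs without Fubp1 and with a knockdown of Fubp2 (KOKD), name this single table, and its 4881417 reads carry no library name. The name of the table points to 1 WT replicate, whereas the labels of all 4 samples cite it, so which libraries its reads came from is not settled. It gives 1 value per gene, and WT and KOKD cells were not compared. Its reads lie in limited regions, so a start with 0 reads may only lie outside them. Reads overlapping 500 bp on each side of the annotated start numbered 239 at Tgfbr2, 229 at Tgfbr1, 221 at Ccn2, 171 at Smad7, 159 at Tgfb3, 123 at Ccn1, 110 at Inhba, 96 at Tgfb1 and 71 at Tgfb2. The median gene tested had 98 reads and 23.9% of the genes tested had 0, so 7 of the 9 lay above the median and none was without reads. The starts of Tgfbr2, Tgfbr1 and Ccn2 had more reads than 89.8%, 88.5% and 87.3% of the genes tested. The start of Ccn1 had more reads than 60.8%, and that of Tgfb2, the lowest mRNA of the 9, more than 36.3%.

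The reads were placed differently along the starts. At Tgfbr1 they gathered just upstream, with 104 reads overlapping the 100 bp from -200 to -101, and at Tgfbr2 over the start itself, with 71 reads from 0 to 99. At Ccn2 the highest bin, with 69 reads, lay inside the gene from 300 to 399, and at Smad7, with 90 reads, upstream from -900 to -801. At Ccn1 the highest bin within 2000 bp was the farthest upstream one, -2000 to -1901, with 55 reads. These are single counts without replicates.

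**Figure D5:**
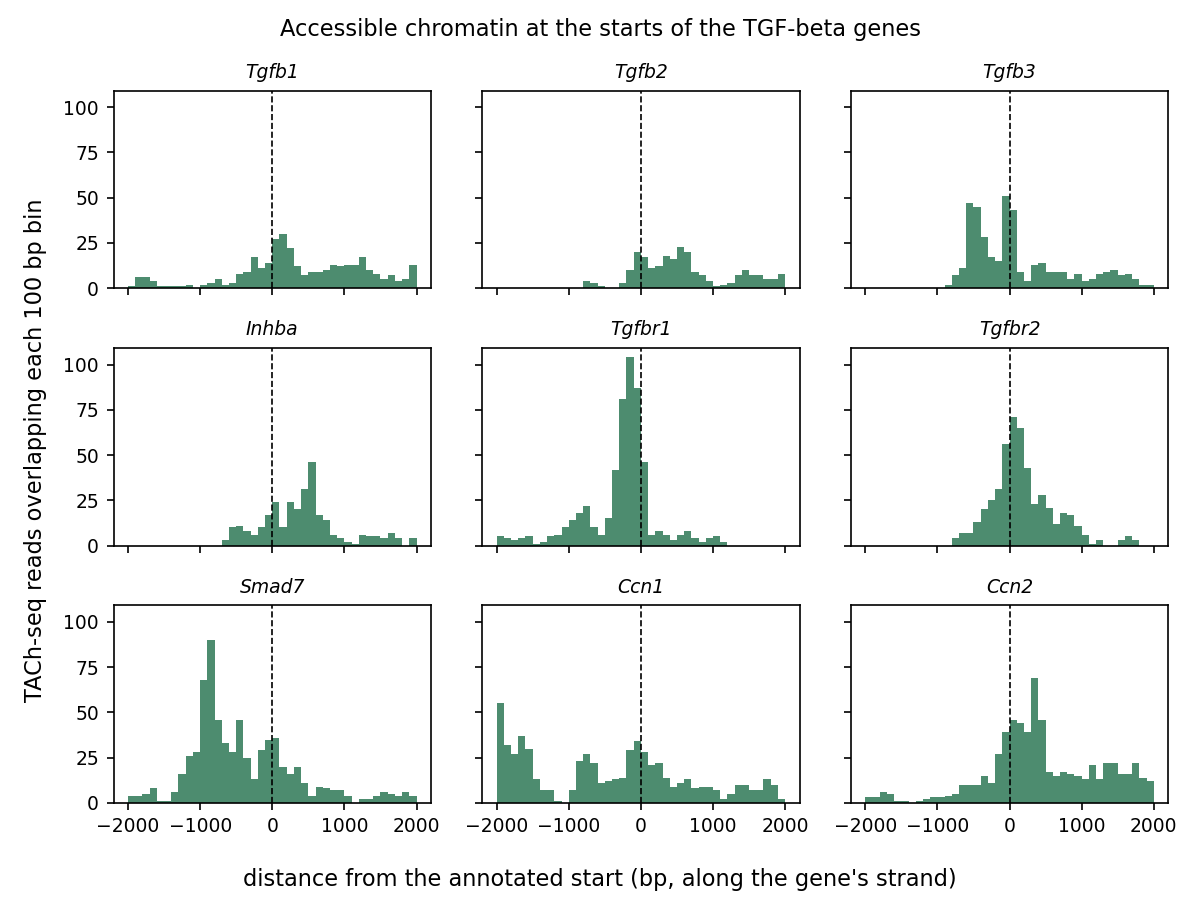
TACh-seq reads overlapping each 100 bp bin within 2000 bp on either side of the annotated start (dashed line) of the 9 genes, all reads of the table together. The highest bins are 104 reads upstream of Tgfbr1 and 90 reads upstream of Smad7.

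The FUBP1 ChIP-seq peak list holds 166 peaks, all on chromosome 15, where none of the 9 genes lies. The paper reports far more peaks than this list holds, and FUBP1 binding at many other genes. Whether FUBP1 binds at the 9 genes therefore cannot be read from the list. The paper also reports some cross-reaction of the ChIP antibody with FUBP2. Of the other pathway genes, 6 lie on that chromosome, and 2 overlapped a called peak: Ccn4, a matrix-associated relative of Ccn1 and Ccn2, with 2 peaks, and Klf10, a TGF-beta-inducible transcription factor, with 1. The share of all chromosome 15 genes that overlap a peak was not determined, so 2 of 6 gives no result about the pathway. The list comes from 1 sample and gives no score, so these overlaps have no error.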

How the data were processed

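The mRNA of 9 TGF-beta genes was analysed in 4 of the 9 samples of the series, from MEFs with low or high MYC. The authors trimmed 3′ bases with a quality under 20, used TopHat and the mm10 transcriptome for alignment and the Partek E/M algorithm for quantification, divided by transcript length and divided by the geometric mean of 10 ERCC transcripts. Reads shared by related genes are split between them by estimate. The deposited values are therefore a signal relative to cell number. Versions of these tools are not given in the sources used here. Counts were not used here and depth is unknown. The most common ratio of each library to low-MYC replicate 1 among low genes was taken as the ratio of the values of 1 read. Under this assumption, low-MYC replicate 2, high-MYC replicate 1 and high-MYC replicate 2 held about 1.04, 0.987 and 0.924 times the reads of low-MYC replicate 1. The assumption was not tested, and a shift shared by these genes could give a similar ratio.

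log2(normalized FPK + 0.1), and log2(share in ppm + 1), were compared with limma 3.58.1 (lmFit, then eBayes with a mean-variance trend; R 4.3.3) over 11870 genes averaging 0.1 or more, with Benjamini-Hochberg adjustment over all of them. A fold change on these scales understates that of low genes. Calls per cell needed an adjusted p under 0.01 and 2-fold. Calls in share needed an adjusted p under 0.01. The procedure was tested on simulated data. No column of values was left unassigned (0). Named pathway genes are those called in share and the 2 highest of each list, 1 of which is not reported here. Smad3, Smad6, Yap1, Wwtr1, Ccn4 and Klf10 were named after their values were seen. The members and lists were chosen with earlier results of these data known.

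For TACh-seq the authors aligned reads with Bowtie2 to mm10, and the deposited table gives positions and a mapping score of 11 to 42 per read; reads overlapping a window by at least 1 base were counted. FUBP1 peaks were called by the authors with SICER. End positions of genes, 1 base beyond those of GENCODE M21, were corrected, after which all 9 members matched it. Alternatives covered the pseudocount, the filter, the scaling, the thresholds, the trend, the replicate block and each library. Python 3.11.15, pandas 2.3.3, numpy 2.4.6 and matplotlib 3.10.9 were used otherwise.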

Additional observations from a re-analysis of the deposited data

How the results depend on the processing

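Per cell, the 3 members called at least 2-fold higher became 1 with a pseudocount 10 times larger, 9 with no minimum fold and 2 to 4 without each library in turn. The 56 other pathway genes became 25 with the larger pseudocount and 51 to 62 without each library, and the 6540 of all genes became 1448 with the larger and 10076 with the smaller pseudocount. The smaller pseudocount gave 4 members and 69 of the 86 other pathway genes. A minimum mean of 1 gave 2 of 7 members, 49 of 64 other pathway genes and 4779 of 5608 of all genes. With the libraries rescaled to the same median, which removes the shift shared by all genes by construction, the counts were 0 members, 1 other pathway gene and 65 of all genes, and the log2 fold changes were -0.14 for Tgfb1, -0.13 for Tgfb2, -0.19 for Tgfb3, -0.30 for Smad7, -0.23 for Ccn1 and -0.39 for Ccn2, reversed against the values per cell, beside 0.0037 for Inhba, 0.0042 for Tgfbr1 and 0.22 for Tgfbr2.

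In share, the 0 members called became 2 (Ccn2 and Smad7, adjusted p = 0.0035 and 0.0071 from limma) with a minimum mean of 1. There 7 members were tested, and 398 of 5608 genes were called. The count was 5 at an adjusted p under 0.05, beside 11.7% of all genes tested. At that looser threshold 1086 of 19769 genes passed with no filter and 1275 of 11870 without the limma trend. Of the members, 2 passed with no filter (adjusted p = 0.0825 for Ccn2, 0.106 for Ccn1 and 0.0684 for Tgfb3 from limma) and 4 without the limma trend (0.0632 for Tgfb3). At an adjusted p under 0.01 the count was 0 to 0 without each library, with 5 or 6 members at an unadjusted p under 0.05. The 11 other pathway genes became 17 with the minimum mean of 1, 6 without the limma trend, 0 with no filter (55 of 98 at an unadjusted p under 0.05), and 0 to 0 without each library. Among all genes, 274 became 80 with no filter and 0 to 61 without each library (0 without either high-MYC library, with 2685 and 3223 at an unadjusted p under 0.05). Leaving out a library leaves 1 in its group, assumed to vary like the others. The log2 fold changes near 0 reversed to -0.0041 for Inhba and -0.0028 for Tgfbr1 with a column total without the 100 highest genes, and to -0.0064 for Inhba without high-MYC replicate 2 (-0.0064 to 0.0442 without each library). Where not stated, the cause was not tested.

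With the replicate number as a block, the members' calls were 3 per cell and 0 in share (6 at an unadjusted p under 0.05 in limma), the other pathway genes called in share fell from 11 to 0 (55 of 86 at an unadjusted p under 0.05), and those of all genes from 274 to 0 (4297 at an unadjusted p under 0.05). The numbers mark technical replicates, and neither the labels nor the paper say whether same-numbered libraries were prepared together. The correlation over genes of the deviations of same-numbered libraries was 0.0810, which cannot settle whether they were paired. The TACh-seq count of members above the median gene was 8 with 1000 bp on each side in place of 7. The depth behind each value is unknown, so the counting error of low genes such as Tgfb2 could not be separated from the spread of the replicates.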
